A study of Homo sapiens with 3 samples.

Results

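The chromatin of 10 genes was described here, namely YAP1 and WWTR1 (which encodes TAZ), the 4 TEAD genes, and the target genes CCN1 (formerly CYR61), CCN2 (formerly CTGF), AMOTL2 and LATS2. They were chosen by name, and were all found among the 20163 protein-coding genes of GENCODE 44 on hg19. For each, the distinct peaks of acetylated lysine 27 (H3K27ac) and trimethylated lysine 4 (H3K4me3) of histone H3 were taken over the annotated gene and within 50 kb on either side, which is called its window. The data came from untreated H2087 cells, an established lung adenocarcinoma line. Chromatin immunoprecipitation and sequencing (ChIP-seq) gave 1 library for each mark, and the labels also describe an input library, which was not analysed here. The labels give neither a genotype nor a copy number for the line.

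YAP and TAZ are transcriptional coactivators without a DNA-binding domain of their own. They are held in the cytoplasm when the Hippo kinases STK3 and STK4, with the scaffold SAV1, activate LATS1 and LATS2, which phosphorylate them. When they enter the nucleus they bind the TEAD proteins, which recognise GGAATG, often at distal enhancers. There they act together with AP-1, a dimer of FOS and JUN proteins that recognises TGANTCA. H3K4me3 usually marks active promoters, and H3K27ac active promoters and enhancers. In lung epithelium the pathway is known for its part in regeneration and in tumour growth.

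Each mark was measured in 1 library, so no value below has a replicate error and no test between genes or marks was made. Each peak has a −log10 q, the confidence that the authors' peak caller gave it, and deeper sequencing or more copies of a locus raise it. Depth and copy number are not known from the peak lists, and their part in the values was not tested. A window without a peak cannot be told from one with too few reads. The label of the cells was checked at the canonical starts of marker genes. Both marks lay within 1 kb of the start of 6 of 8 lung and epithelial markers, including NKX2-1 and KRT7, and neither at NAPSA or SFTPB. Of 13 annotated squamous, neuroendocrine, leukocyte, endothelial and fibroblast markers, SOX2 had both marks, CD68 had H3K27ac alone, and the other 11 had neither. PECAM1 was not found among the protein-coding genes used.

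Sequence was examined first, because GGAATG is the motif that TEAD proteins are known to bind. In the 250 bases before the canonical start on hg19, GGAATG occurred on either strand in 6 of the 10 genes, among them YAP1, TEAD4, CCN1, CCN2 and AMOTL2, against 9.83% of all protein-coding genes. CCN2 had 3 matches, a number reached by 9 of the 20163 promoters, or 0.0446%. TGANTCA occurred in none of the 10, and in 4.72% of all. A match is a match of letters and not a measured binding site. The promoters of CCN2 and CCN1 are shown because each stretch holds the motif and no annotated exon. Those of YAP1, TEAD4 and AMOTL2 run into an annotated exon and are not shown. The sequences are written in the direction of transcription, ending on the base before the start, with the motif in capitals, which reads CATTCC where it lies on the opposite strand.
CCN2, chr6:132272513-132272762, minus strand: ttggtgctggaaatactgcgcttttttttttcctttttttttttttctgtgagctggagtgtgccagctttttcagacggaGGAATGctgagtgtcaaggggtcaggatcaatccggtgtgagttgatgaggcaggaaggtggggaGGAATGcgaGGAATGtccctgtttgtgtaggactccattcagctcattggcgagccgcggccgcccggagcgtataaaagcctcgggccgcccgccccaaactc
CCN1, chr1:86046194-86046443, plus strand: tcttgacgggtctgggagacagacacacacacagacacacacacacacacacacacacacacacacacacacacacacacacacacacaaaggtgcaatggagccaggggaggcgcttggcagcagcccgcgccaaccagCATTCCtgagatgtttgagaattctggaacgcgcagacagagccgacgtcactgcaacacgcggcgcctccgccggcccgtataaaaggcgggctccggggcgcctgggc
Counted back from the start, the matches in CCN2 began at −169, −104 and −95, and that in CCN1 at −110. All 3 matches in CCN2 read GGAATG in the direction of transcription, whereas that in CCN1 lay on the opposite strand.

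The sequences under H3K27ac that carry the findings below are shown next, on the plus strand of hg19. The rule for distal peaks (over 3 kb from every annotated transcript start of a protein-coding gene, outside exons, with GGAATG) found 1 peak, in an intron of TEAD1. The others were chosen after their values were seen, namely 300 bases of the strongest H3K27ac peak of AMOTL2, the part of the WWTR1 intron under both marks, and a TEAD4 intron peak with TGANTCA. Matches of either motif, on either strand, are in capitals.
TEAD1 intron, chr11:12746632-12746824: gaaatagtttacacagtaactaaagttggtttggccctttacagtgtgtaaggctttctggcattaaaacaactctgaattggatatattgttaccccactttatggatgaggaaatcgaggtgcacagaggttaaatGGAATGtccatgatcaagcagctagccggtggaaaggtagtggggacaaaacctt
AMOTL2 intron, chr3:134091692-134091991: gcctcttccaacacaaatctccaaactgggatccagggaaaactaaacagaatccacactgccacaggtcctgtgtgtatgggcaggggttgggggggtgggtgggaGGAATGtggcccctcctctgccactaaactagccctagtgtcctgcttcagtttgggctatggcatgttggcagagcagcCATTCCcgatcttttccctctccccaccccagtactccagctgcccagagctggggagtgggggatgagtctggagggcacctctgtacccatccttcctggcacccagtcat
WWTR1 intron, chr3:149296208-149296410: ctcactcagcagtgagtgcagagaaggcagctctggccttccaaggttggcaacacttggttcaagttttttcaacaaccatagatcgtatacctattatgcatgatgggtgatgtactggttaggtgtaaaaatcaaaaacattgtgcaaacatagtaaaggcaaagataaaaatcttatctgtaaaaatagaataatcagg
TEAD4 intron, chr12:3073230-3073437: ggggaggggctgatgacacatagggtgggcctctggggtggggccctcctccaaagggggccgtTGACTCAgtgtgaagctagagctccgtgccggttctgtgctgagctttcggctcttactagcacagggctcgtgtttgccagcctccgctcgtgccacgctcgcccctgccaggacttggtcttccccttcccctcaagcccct
The AMOTL2 stretch holds the TEAD motif from its bases 108 and 188, the second on the opposite strand. The WWTR1 stretch holds neither motif, and the TEAD4 stretch holds TGACTCA from its base 65.

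Together, the 10 windows held 47 peaks of H3K27ac out of 24096 in the list, and 35 of H3K4me3 out of 18585. H3K4me3 was found in the windows of all 10 genes, while 70.2% of all protein-coding genes had a peak in the window. In each of the 10 a peak lay over the gene itself, for which no share of all genes is available. H3K27ac was found in 7 windows, against 63.9% of all genes, and was absent from the list at TEAD2, CCN2 and LATS2. The H3K27ac peaks were unevenly spread, with 28 of the 47 in the windows of AMOTL2 and WWTR1. The number per window ranged from 0 to 14 with a median of 3, against a median of 1 (interquartile range 0 to 4) over all protein-coding genes. For H3K4me3 the range was 1 to 8 and the median 3.5, against 2 (0 to 4). These numbers do not allow for window length, which ranged from 103 kb (CCN2) to 370 kb (TEAD1). By place, 24 of the 47 H3K27ac peaks lay in introns of the gene and 4 over its exons, while 17 of the 35 H3K4me3 peaks were intronic and 8 exonic. No share of the whole lists by place is available, so these counts cannot be read as a trait of the 10 genes. Median peak width was 281 bp for H3K27ac (184 to 1055 bp), against 284 bp in the whole list, and 282 bp for H3K4me3 (180 to 1379 bp), against 305 bp.

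**Figure D1:**
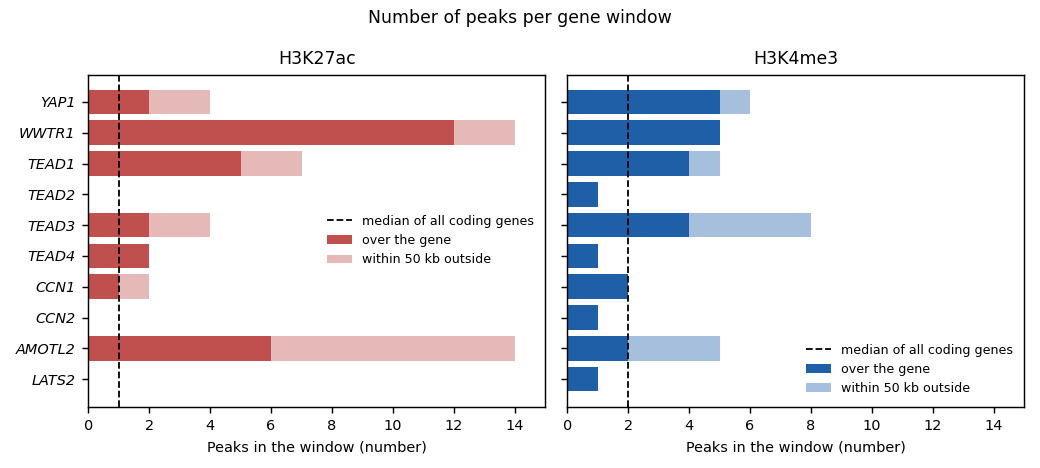
Number of H3K27ac peaks (left) and H3K4me3 peaks (right) in the window of each gene, with dark bars for peaks over the gene, light bars for peaks within 50 kb outside it and a dashed line at the median of all protein-coding genes. AMOTL2 and WWTR1 reach 14 H3K27ac peaks each, whereas TEAD2, CCN2 and LATS2 have 0.

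Gene starts were examined next, because H3K4me3 usually marks them in active genes. Within 1 kb of the outermost annotated start, 7 of the 10 genes had H3K4me3, against 38.2% of all, and 1 (CCN1) had H3K27ac, against 23.6%. The outermost start of WWTR1 lies 78.7 kb upstream of the start of its canonical transcript, and that of AMOTL2 1.03 kb upstream. With canonical starts, which were added after the data were seen, 9 genes had H3K4me3 against 41.3% of all, and 3 (WWTR1, CCN1 and AMOTL2) had H3K27ac against 25.2%. Both marks were found at the canonical starts of WWTR1 and AMOTL2, against 20.4% of all genes. The gene without H3K4me3 there was CCN1, whose nearest H3K4me3 peak began 1.2 kb downstream. That peak had a −log10 q of 1.34, higher than only 0.748% of the list, and a stronger one (3.76) began 1.94 kb downstream. In the 1000 bp around the canonical start, the ratio of observed to expected CpG had a median of 0.879 over the 10 genes (0.594 at TEAD2 to 0.976 at TEAD1). All protein-coding starts had a median of 0.723, those with H3K4me3 0.797 and those without 0.565.

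**Figure D2:**
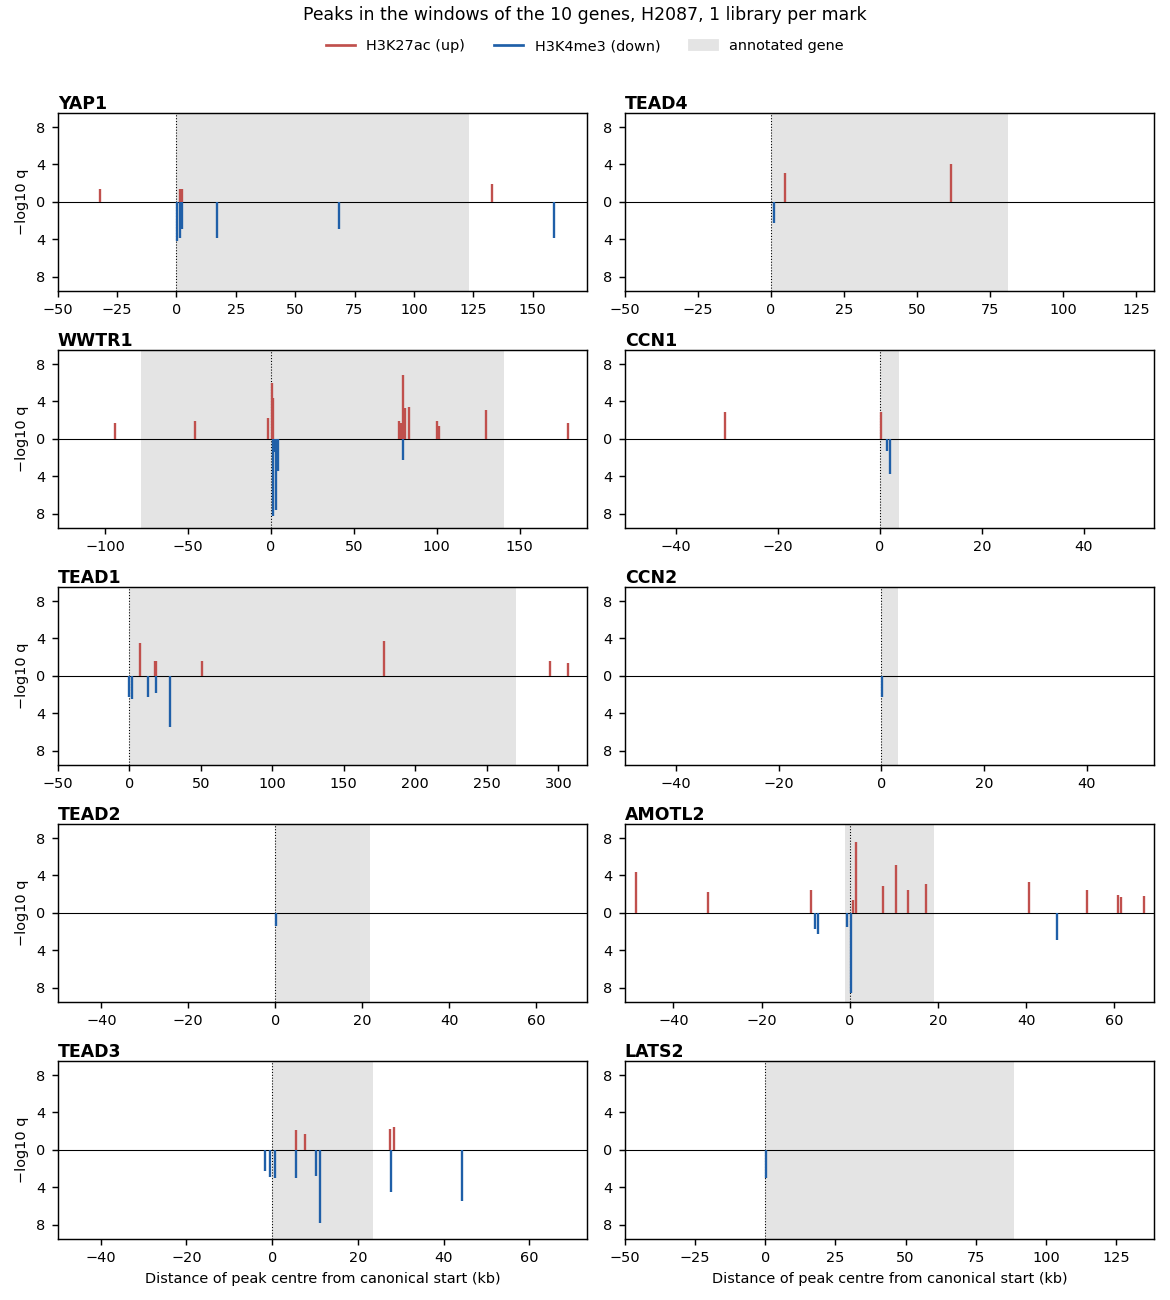
Position of every peak in the 10 windows as the distance of its centre from the canonical start in kb, in the direction of transcription, with the −log10 q as the length of the line (H3K27ac upward, H3K4me3 downward) and the annotated gene in grey. By its nearer edge, H3K4me3 stands within 1 kb of the canonical start, on either side, in every gene but CCN1, where it begins 1.2 kb downstream. At TEAD4 the edge lies at 979 bp and the plotted centre at 1071 bp. H3K27ac forms separate clusters inside WWTR1 and across AMOTL2.

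Of the coactivators, YAP1 had its highest −log10 q values in H3K4me3, whereas WWTR1 had peaks high in both lists. YAP1 (ENSG00000137693.14, chromosome 11, 101981178 to 102104155, plus strand) had more H3K4me3 peaks (6) than H3K27ac peaks (4). Its first H3K4me3 peak (101981236 to 101981785, 550 bp) covered untranslated and coding parts of exon 1, and had a −log10 q of 4.20, above 73.3% of the H3K4me3 list. Including those outside the gene, the H3K27ac peaks of YAP1 had −log10 q between 1.37 and 1.89, and none reached the median of its list, 2.65. A pair of them, at 101982488 and 101983212 (both 1.39), lay in the first 3 kb of the gene and overlapped H3K4me3 peaks with −log10 q of 3.87 and 2.93. The second of these places is the annotated start of another transcript. The exon 1 peak itself had no H3K27ac overlap. Farther into the gene, H3K4me3 peaks without H3K27ac stood 16.8 kb (3.89, 651 bp wide) and 68.5 kb (2.92) downstream of the start, in introns.

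WWTR1 (ENSG00000018408.15, chromosome 3, 149235022 to 149454501, minus strand) had 14 H3K27ac and 5 H3K4me3 peaks. Its count of H3K27ac peaks was higher than that of 96% of all protein-coding windows, and its density, 4.38 per 100 kb of window, was higher than that of 82.3%. The median −log10 q of these peaks was 2.08, below the 2.65 of the list, and 6 of the 14 were at or above the list median. The start of the canonical transcript carried the widest H3K4me3 peak of the 10 windows, 1379 bp with 3 summits over exons 1 and 2 (149374187 to 149375565, −log10 q 8.24, higher than 96.9% of the list). H3K27ac peaks with −log10 q of 6.02 over exon 1 and 4.32 over exon 2 overlapped it. A further H3K4me3 peak in an intron 2.58 kb downstream had a −log10 q of 7.63 and no H3K27ac overlap.

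A separate cluster of H3K27ac lay in an intron of WWTR1, from 149291806 to 149298721. It consisted of 5 peaks, the widest of 1055 bp (−log10 q 3.38), over 3.29 kb of a 6.92 kb stretch, and 80.5% of the 4606 such clusters in the H3K27ac list had fewer peaks. Its strongest member (149295803 to 149296660, 858 bp, 2 summits) had a −log10 q of 6.81, above both H3K27ac peaks at the canonical start and higher than 97.5% of the list. It lay 79.2 kb downstream of the canonical start, and 1764 bp from the nearest transcript start of a protein-coding gene. The widest peak lay 1179 bp from such a start, and the peak from 149294757 to 149295515 lay 718 bp from one. The cluster is therefore far from the canonical start but not from every annotated start. An H3K4me3 peak of 203 bp (−log10 q 2.23) lay inside the strongest H3K27ac peak, and is the WWTR1 sequence printed above. Of the 14 H3K27ac peaks in the window, the only one with GGAATG lay 178 bp from the start of the neighbouring gene COMMD2.

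The TEAD genes encode the DNA-binding partners. Each had H3K4me3 near its canonical start and none had H3K27ac within 1 kb of it. TEAD1 (ENSG00000187079.20, chromosome 11, 12695968 to 12966284, plus strand) had 7 peaks of H3K27ac and 5 of H3K4me3. The H3K4me3 peak nearest to its start was 260 bp upstream with a −log10 q of 2.23, whereas a stronger one (12724546 to 12724828, 5.47) lay 28.6 kb into the gene, in an intron, and holds GGAATG. The widest H3K4me3 peak (335 bp, 1.88), 18.6 kb into the gene, overlapped H3K27ac. Its highest H3K27ac peaks were intronic as well, 7.19 kb (3.55) and 178 kb (3.71) downstream of the start. The distal peak printed above had a −log10 q of 1.55, higher than only 8.32% of the H3K27ac list.

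TEAD3 (ENSG00000007866.22, chromosome 6, 35441374 to 35464856, minus strand) had 8 H3K4me3 peaks, the most among the 10 genes, in a window shared with 3 other protein-coding starts. A pair with −log10 q of 2.97 and 2.92 flanked its own start at distances of 437 and 268 bp. The strongest, at 35453605 to 35453895, had a −log10 q of 7.81, lay in an intron 10961 bp downstream of the canonical start and 10832 bp from the nearest transcript start, and had no H3K27ac overlap. The next, 5.47 and 4.54, belonged by distance to FANCE and RPL10A. Inside TEAD3, H3K27ac reached 1.74 and 2.16, both below the median of its list. The highest (2.45) and the widest (806 bp, 2.22) H3K27ac peaks of the window were nearest to RPL10A.

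TEAD4 (ENSG00000197905.10, chromosome 12, 3068496 to 3149842, plus strand) had 1 H3K4me3 peak, 185 bp wide and 979 bp downstream of the start (−log10 q 2.23). Its H3K27ac peaks were both intronic, at 3073230 to 3073437 (3.05, the TGACTCA peak printed above) and at 3130064 to 3130260 (4.01). TEAD2 (ENSG00000074219.14, chromosome 19, 49843852 to 49865714, minus strand) had 1 peak in all, H3K4me3 over the untranslated part of exon 1 (49865330 to 49865623). Its −log10 q of 1.41 was higher than only 3.99% of the list, and the 4 other protein-coding starts in the window had no peak either. Ordered by the strongest H3K4me3 peak whose nearest start was their own, the genes were TEAD3 (7.81), TEAD1 (5.47), TEAD4 (2.23) and TEAD2 (1.41). The values of TEAD3 and TEAD1 came from intronic peaks 11 kb and 28.6 kb from the start, so this is not an order of the starts. Within 1 kb of the canonical start, the highest values were 2.97 for TEAD3, 2.23 for TEAD1 and TEAD4, and 1.41 for TEAD2. With 1 library, no spread is known against which neighbours in either order could be compared.

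**Figure D3:**
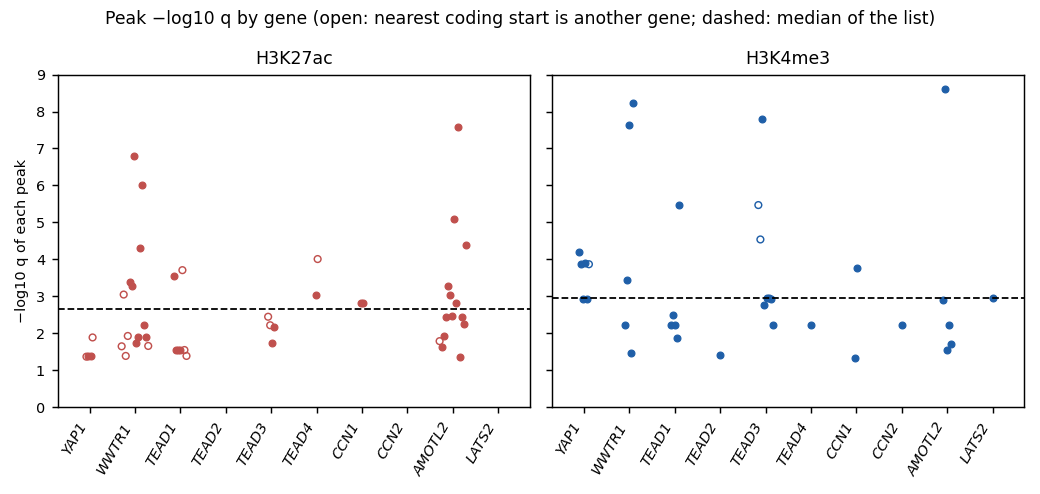
The −log10 q of each peak by gene for H3K27ac (left) and H3K4me3 (right), with open points where the nearest protein-coding start is that of another gene and a dashed line at the median of the whole list (2.65 and 2.97). The highest H3K27ac points belong to AMOTL2 (7.59) and WWTR1 (6.81), and all points of YAP1 and of TEAD3 lie below the H3K27ac median.

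The target genes differed widely. AMOTL2 encodes a scaffold of the angiomotin family that binds YAP and restrains it. AMOTL2 (ENSG00000114019.15, chromosome 3, 134074189 to 134094321, minus strand) had 14 H3K27ac peaks in a window of 120 kb. This density, 11.7 per 100 kb, was higher than that of 97% of protein-coding windows, and 13 of the 14 peaks had AMOTL2 as the nearest start. The strongest (134091610 to 134092016, 407 bp) lay in an intron 1.27 kb downstream of the canonical start. Its −log10 q of 7.59 was the highest of the 47 H3K27ac peaks and higher than 98.5% of the list, and it holds the motif at 2 places, both in the sequence printed above. The next lay in an intron 10.3 kb downstream of the start (5.09) and outside the gene 48.3 kb upstream of it (4.39).

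H3K4me3 at the start of AMOTL2 (134092750 to 134093287, 538 bp, 2 summits) began 2 bp downstream of the canonical start and covered the untranslated part of exon 1. Its −log10 q of 8.61 was the highest of the 35 H3K4me3 peaks and higher than 97.6% of the list. A further H3K4me3 peak lay 434 bp upstream of the canonical start (302 bp, 1.55). None of the AMOTL2 peaks of either mark overlapped a peak of the other. In the start region the H3K4me3 peak was followed downstream by an H3K27ac peak of 236 bp (1.37) at 714 bp and then by the strongest one. The 7 H3K27ac peaks from 134075699 to 134102165 formed the cluster with the most peaks in any of the 10 windows when peaks within 10 kb were joined, and 90.8% of all clusters had fewer. The peak at the far end of the gene (134075699 to 134076510, 812 bp, 3.03) covered the untranslated part of exon 10 and also held GGAATG, on either strand, at 2 places.

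CCN1 and CCN2 encode secreted matricellular proteins and are the most widely used readouts of YAP and TAZ activity. CCN1 (ENSG00000142871.18, chromosome 1, 86046444 to 86050272, plus strand) had an H3K27ac peak over untranslated and coding parts of exon 1 (86046511 to 86046811, 301 bp). Its −log10 q was 2.82, above 52.9% of the list. The H3K4me3 peaks of CCN1 followed in exon 3 (1.34) and exon 5 (3.76, 234 bp), without overlap, and a distal H3K27ac peak (2.82) lay 30.3 kb upstream. CCN2 (ENSG00000118523.6, chromosome 6, 132269316 to 132272512, minus strand) had 1 peak in all, H3K4me3 over exon 1 (132272248 to 132272432, 185 bp, 2.23, higher than 27.3% of the list). The 3 matches of GGAATG in its promoter thus lay beside this peak, in a window in which no H3K27ac peak was listed.

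LATS2 encodes a kinase that inhibits YAP and TAZ and is itself one of their targets. LATS2 (ENSG00000150457.9, chromosome 13, 21547175 to 21635725, minus strand) had 1 peak in all, H3K4me3 over the untranslated part of exon 1 (21635221 to 21635637, 417 bp). Its −log10 q was 2.97, the same as the median of the list.

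The peaks of the 10 windows were compared with their whole lists as a description. The median −log10 q was 2.22 (exact 95% interval 1.89 to 2.82) for H3K27ac, against 2.65 for the list, and 2.92 (2.23 to 3.76) for H3K4me3, against 2.97. At or above the 95th percentile of their lists were 3 of the 47 H3K27ac and 4 of the 35 H3K4me3 peaks. In all, 7 of the 47 H3K27ac peaks lay within 1 kb of a canonical protein-coding start (14.9%, exact 95% interval 6.2 to 28.3, against 23% of the list). Of the 47, 39 (83%, 69.2 to 92.4) lay over 3 kb from every outermost start, against 69.5% of the list. Counting the starts of every transcript lowered this to 63.8% (48.5 to 77.3), against 53.9%. An overlap of at least 1 bp with H3K4me3 was found for 9 of 47 H3K27ac peaks (19.1%, 9.15 to 33.3, against 24% of the list). Of 35 H3K4me3 peaks, 7 (20%, 8.44 to 36.9, against 31.1%) overlapped H3K27ac. For H3K4me3, 13 of 35 peaks lay within 1 kb of a canonical start (37.1%, 21.5 to 55.1, against 52.5%). Each of these intervals contained the value of the list. The intervals of shares are Clopper-Pearson intervals, and all cover counting error only. All intervals here treat peaks as independent, although 28 of the 47 H3K27ac peaks lay in the windows of AMOTL2 and WWTR1. They may therefore be too narrow for the 10 genes.

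Motifs in the peaks were counted on both strands, and no match of GGAATG overlapped one of TGANTCA. The TEAD motif was found in 6 of 47 H3K27ac peaks (12.8%, 4.83 to 25.7), against 14.9% of the list, and in 6 of 35 H3K4me3 peaks (17.1%, 6.56 to 33.6), against 15.6%. For the longer motif GGAATGT the order was the opposite, with 4 of 47 H3K27ac peaks (8.51%, 2.37 to 20.4) against 3.32% of the list. Per kb of peak, H3K27ac had 0.474 matches of GGAATG in these windows and 0.504 in the list. TGANTCA was found in 2 H3K27ac peaks (4.26%, 0.52 to 14.5, against 5.47%) and 2 H3K4me3 peaks (5.71%, 0.7 to 19.2, against 4.26%). The narrower TGACTCA was found in 1 of the 47 H3K27ac peaks (2.13%, 0.0539 to 11.3, against 3.53%). These intervals also contained the values of the lists. Among the 30 H3K27ac peaks over 3 kb from every transcript start, 2 held GGAATG (6.67%, 0.818 to 22.1), against 15.3% of such peaks in the list.

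Other genes of the pathway were taken from lists and described by their canonical starts. Of 13 upstream regulators, which include the kinases and scaffolds that hold YAP back, 10 had H3K4me3 and 7 had both marks (FRMD6, NF2, STK4, TAOK1, TAOK2, TAOK3 and WWC1). MAP4K4, MOB1B and STK3 had neither, although STK3 had both at its outermost start, where FRMD6 had neither. WWC1, a scaffold upstream of the kinases, had the most H3K27ac peaks of this list, 13 in its window, without allowance for window length. Of 6 cofactors and inhibitors, AMOTL1 had H3K4me3 and the other 5 (AMOT and VGLL1 to VGLL4) had neither mark. At outermost starts AMOTL1 had none as well. Of 19 further target genes, 10 had H3K4me3 and 7 H3K27ac. Both marks stood at AJUBA, CRIM1, F3, GADD45A, NUAK2 and PTPN14, and neither at ANKRD1, AXL, CCDC80, DOCK5, FOXF2, IGFBP3, MYOF and RBMS3. The shares of all genes are those given above, 41.3% for H3K4me3 and 25.2% for H3K27ac. AP-1 genes, whose products join TEAD at enhancers, were marked by H3K4me3 in 6 of 7 and by H3K27ac in 5 of 7. The 5 were FOSL1, FOSL2, JUN, JUNB and JUND, of which FOSL2 lacked H3K27ac at its outermost start. AP-1 genes had a median of 9 H3K27ac peaks per window (0 to 18), against 3 for the 10 genes. The median was 5 for upstream regulators, 4 for further target genes, 0 for cofactors and inhibitors and 1 for all protein-coding genes. These medians do not allow for window length either. The difference between the lists was not tested, since genes are not replicates.

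**Figure D4:**
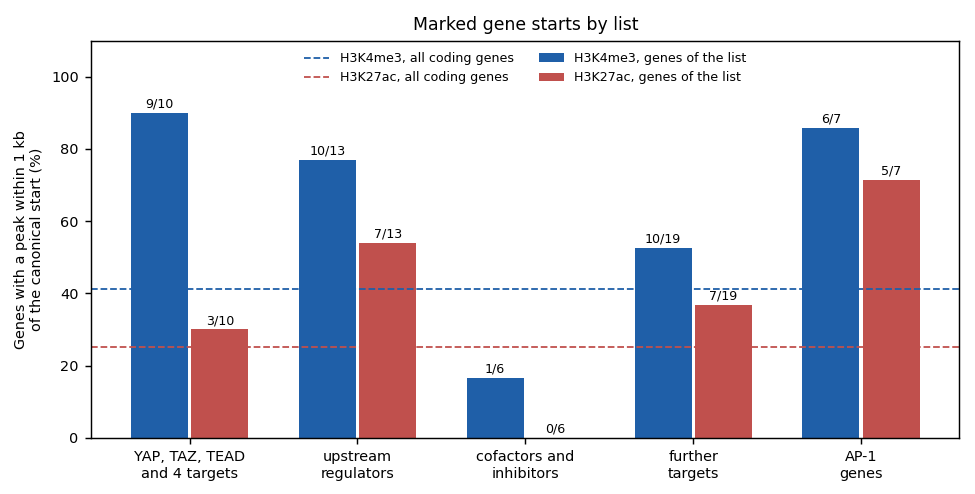
Percentage of genes with a peak within 1 kb of the canonical start, for the 10 genes and 4 lists of related genes, with the counts above the bars and dashed lines for all protein-coding genes (41.3% and 25.2%). H3K4me3 is at 9 of the 10 genes and H3K27ac at 3, while 1 of the 6 cofactors and inhibitors has H3K4me3.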

How the data were processed

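ChIP-seq was performed in untreated H2087 cells, with 1 library each for H3K27ac and H3K4me3. Per the study's methods and the submitters' processing notes, the authors aligned the reads to hg19 with Bowtie 1.1.1 and called peaks with MACS2 2.1.0 for each mark. The threshold, the control and duplicate handling are not given in the sources used here. SAMtools 1.2, Picard 1.118 and ChIPseeker 1.6.6 are also named in the notes. The deposited peak lists have a column without a header, read here as the −log10 q value of each summit from its values (never negative, smallest 1.303 and 1.306 against 1.301 for a q of 0.05). Depth is unknown, so precision rests on numbers of peaks.

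Distinct intervals were taken with their highest value, and set against GENCODE 44 mapped to GRCh37, the build of the files (positions 1-based). Canonical starts are those of the transcript tagged as Ensembl canonical, or the outermost start where there was none. H3K27ac peaks within 10 kb were joined into clusters of at least 2 peaks. Window, overlap and joining functions were tested on simulated data. Python 3.11.15, SciPy 1.17.1 and pysam 0.24.0 were used. The genes named are the 10 members, each with the peaks at its start and its strongest and widest peaks, and the lists. Members, lists and motifs were chosen with earlier results of these data known. 1 promoter sequence is not reported here. Alternatives are given in the closing section.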

Additional observations from a re-analysis of the deposited data

How the results depend on the processing

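No paired analysis was possible because there was a single library per mark, which also left no replicate to omit. For 32 results, 111 alternative values were computed, and canonical starts were chosen after seeing the data. Of the 51 that concern all 10 genes together, 37 stayed within the tolerance, which was a factor of 1.5 for counts and the exact 95% interval for shares and medians, and 14 moved beyond it. With only peaks at or above the median −log10 q of each list, 18 H3K27ac and 16 H3K4me3 peaks were left, with median −log10 q of 3.47 and 4.05. H3K4me3 was then at the outermost start of 3 genes, 6.25% of H3K4me3 peaks overlapped H3K27ac, and the largest cluster had 4 H3K27ac peaks. These changes follow from the removal of peaks. H3K27ac was found at 3 genes within 3 kb of the outermost start, at 3 within 1 kb of the canonical start and at 4 for the start of any transcript, against 1. No share of all protein-coding genes is available for the upper part of the lists, for 3 kb or for the start of any transcript. Those counts of genes therefore cannot be called high or low. The share of H3K27ac peaks overlapping H3K4me3 was 8.51% when 50% of both peaks had to be in common and 34% with the other mark within 1 kb, where the share of H3K4me3 peaks was 37.1%. With starts of every transcript, 63.8% of H3K27ac peaks lay over 3 kb from a start. For single genes, 20 of 60 values moved. The H3K27ac peaks of YAP1 and TEAD3 fell to 0 in the upper part of the list and numbered 8 and 9 in windows of 100 kb, while WWTR1 and AMOTL2 each had 6 of 14 in the upper part and AMOTL2 had 8 in windows of 25 kb. The unknown depth limits every statement that a mark was not listed.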

Other observations

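The following target genes were chosen after their values were seen. MYOF, which encodes the membrane repair protein myoferlin, had 16 H3K27ac peaks in its window, while 97.4% of protein-coding windows had fewer, and 5 H3K4me3 peaks. Neither mark lay within 1 kb of its canonical start. CRIM1 had the same number of H3K27ac peaks, with both marks at the start. These counts do not allow for window length, which grows with the length of the gene. ANKRD1, a cardiac ankyrin repeat gene often used as a YAP readout, had no peak of either mark in its window. The same held for DOCK5 and FOXF2. Of all protein-coding windows, 36.1% had no H3K27ac peak and 29.8% no H3K4me3 peak.

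Several peaks in the windows lay nearest to other genes. Of the 47 H3K27ac peaks, 33 had the start of the gene that defined the window as the nearest canonical start, and of the 35 H3K4me3 peaks, 32. No such share over all protein-coding windows is available. The windows of YAP1, TEAD1, CCN2, AMOTL2 and LATS2 held the outermost start of no other protein-coding gene, which favours the own start. In the TEAD3 window, an H3K4me3 peak of 1300 bp with 3 summits (−log10 q 4.54) lay 425 bp from the start of RPL10A, a ribosomal protein gene, and overlapped both H3K27ac peaks there. It was the only peak in the windows that held both GGAATG and TGANTCA.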
